A study of Mus musculus with 4 samples.

Results

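The genes of the MHC class II antigen presentation pathway were followed in 4 mouse lung tumour samples. The 10 genes, chosen by symbol, were Ciita, Cd74, H2-Aa, H2-Ab1, H2-Eb1, H2-DMa, H2-DMb1, H2-Oa, H2-Ob and Ctss, out of 24391 genes listed. All 10 were present in every sample and all 10 were among the 16001 genes that passed the filter on low counts. Both groups of tumours carried K-Ras LSL-G12D, a mutant K-Ras allele held silent by a lox-stop-lox cassette until Cre recombinase removes it. The 2 K-Ras samples carried no further named allele, and the 2 Mll4-deleted samples, labelled K-Ras Mll4-/-, came from tumours with floxed Mll4 alleles (Mll4 fl/fl). The Cre driver, the strain, the age of the mice and the time of tumour collection are not given in the sources used here. Cells carrying CD45, the common leukocyte antigen, had been depleted from all 4 samples before RNA was taken. The labels do not say whether the replicates came from different mice, so the spread between them may be partly technical.

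MHC class II molecules are heterodimers of an alpha and a beta chain that show peptides from the endosome to CD4+ T cells. The transactivator CIITA switches the chain genes and Cd74 on together through a promoter module that they share. The invariant chain, encoded by Cd74, blocks the peptide groove until proteases such as cathepsin S (Ctss) remove it, and H2-DM then exchanges the remaining fragment for other peptides under the restraint of H2-O. B cells, dendritic cells and many macrophages carry class II, and in the lung alveolar type 2 cells, the surfactant-producing cells from which many K-Ras tumours of this kind arise, also make it.

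Promoter sequences are shown because the results turn on how closely the genes kept together, and the class II promoter module is background to that. On the GRCm38.p6 assembly of RefSeq, 7 of the 10 genes lie on chromosome 17, with other genes among them, in the order H2-Oa, H2-DMa, H2-DMb1, H2-Ob, H2-Ab1, H2-Aa and H2-Eb1, while Ctss, Ciita and Cd74 lie on chromosomes 3, 16 and 18. RefSeq promoter windows of 300 bases were matched by symbol for 7 genes, and Ciita, Cd74 and H2-Ab1 had none in that table. The stretches below run from 150 to 31 bases before the start of transcription, 5′ to 3′ on the gene's own strand. Capitals mark matches on either strand to the X1 box consensus (14 letters, of which 10 are fixed and at most 2 of those mismatched), to the Y box core CTGATTGG and to CCAAT or its reverse complement ATTGG, which is contained in the Y box core.
H2-Eb1: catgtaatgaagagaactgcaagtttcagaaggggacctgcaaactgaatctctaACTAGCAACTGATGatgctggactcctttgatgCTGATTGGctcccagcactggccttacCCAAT
H2-DMb1: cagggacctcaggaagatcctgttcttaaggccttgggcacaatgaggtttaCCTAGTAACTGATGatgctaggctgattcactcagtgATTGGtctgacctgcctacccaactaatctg
H2-Ob: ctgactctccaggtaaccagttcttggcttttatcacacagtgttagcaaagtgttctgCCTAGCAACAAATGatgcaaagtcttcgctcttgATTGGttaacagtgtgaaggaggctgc
H2-Aa: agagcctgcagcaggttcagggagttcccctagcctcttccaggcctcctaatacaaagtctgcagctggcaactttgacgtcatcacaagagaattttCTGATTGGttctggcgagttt
H2-Oa: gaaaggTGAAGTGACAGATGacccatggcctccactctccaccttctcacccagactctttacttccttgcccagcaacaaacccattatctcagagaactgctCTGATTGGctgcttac
Ctss: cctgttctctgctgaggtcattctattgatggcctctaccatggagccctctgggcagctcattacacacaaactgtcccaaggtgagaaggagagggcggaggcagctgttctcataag

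These stretches are chr17:34305717-34305836 (plus strand) for H2-Eb1, chr17:34153041-34153160 (plus) for H2-DMb1, chr17:34238755-34238874 (plus) for H2-Ob, chr17:34287854-34287973 (minus) for H2-Aa, chr17:34092229-34092348 (plus) for H2-Oa and chr3:95526636-95526755 (plus) for Ctss. In H2-Eb1, H2-DMb1 and H2-Ob an X1 match was followed on the same strand by ATTGG after 22, 23 and 20 bases. Such an order, with a gap of 15 to 25 bases, was found in 0.301% of the 32851 promoter windows of the same length, and the gap was chosen after the windows had been read. The Y box core alone was found in 3 of the 7 genes and in 4.10% of all windows, CCAAT on either strand in 6 of the 7 genes and 37.4% of windows, and an X1 match in 4 of the 7 genes and 22.9% of windows. The 2 windows of H2-DMa held no X1 match and no Y box core, and neither did that of Ctss. A match describes letters in these windows and does not show that a factor binds there.

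The whole libraries held between 26683033 and 36677987 reads assigned to genes. The lowest count of any of the 10 genes in any sample was 101 reads, against a floor of 3 reads that corresponds to 0.0830 to 0.114 CPM, read counts brought to a common library size with TMM scaling between samples. The targeted gene, Kmt2d, taken here as Mll4 (a name also used for Kmt2b), stood at 395 and 526 CPM in K-Ras and at 367 and 317 CPM in Mll4-deleted samples. The difference of -0.43 on the log2 scale (SE 0.21) missed the threshold (edgeR adjusted p = 0.302). A total per gene cannot show a missing exon, so the deletion is taken from the labels.

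No member of the pathway was called different between the tumour groups. With the edgeR quasi-likelihood test and Benjamini-Hochberg adjustment over all tested genes, 0 of the 10 genes had an adjusted p under 0.05, against 0.0375% of all tested genes (6 higher and 0 lower). Without adjustment 0 had a p under 0.05 as well, against 21.8% of all tested genes, 11.4% higher and 10.4% lower. DESeq2 called 0 of the 10, against 1601 of all 16001 tested genes. By limma-voom 0 genes were called in all, so its 0 of the 10 adds nothing. The log2 fold changes, Mll4-deleted minus K-Ras, ran from -0.10 (Ciita) to 0.80 (Ctss). Their median was 0.21, with 8 of 10 positive, beside a median of -0.01 over all tested genes. In absolute size the median was 0.21 for the 10 genes and 0.33 for all tested genes. The values of the groups overlapped for 9 of the 10 genes, whereas they did not overlap for 58.3% of all tested genes, 29.9% with Mll4-deleted higher and 28.5% with Mll4-deleted lower. With 2 samples a group, the 95% intervals of the single genes reached from 0.604 to 1.44 times for Ciita and from 0.606 to 5.01 times for Ctss, so these values do not show that the groups were alike.

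**Figure D1:**
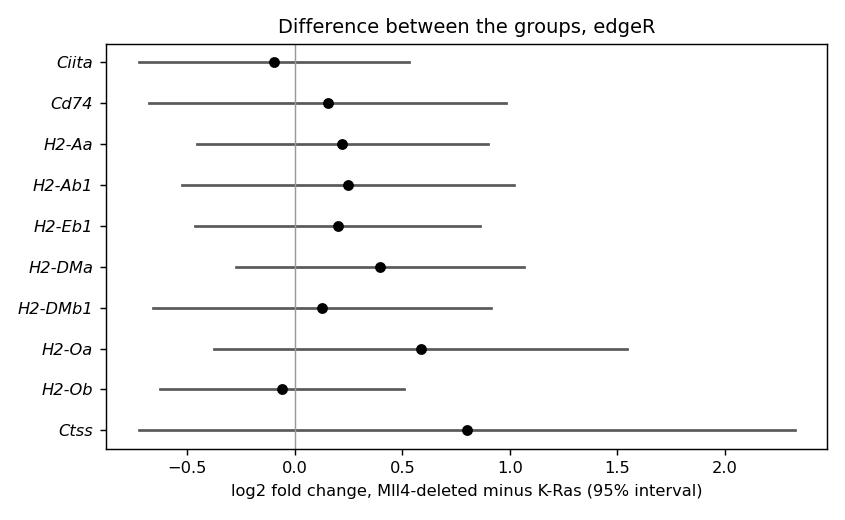
Log2 fold change (Mll4-deleted minus K-Ras, x axis) of each of the 10 genes, with its 95% interval from the edgeR quasi-likelihood fit of 2 against 2 samples. Every interval crosses 0, and that of Ctss is the widest, from -0.72 to 2.32.

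Levels differed far more between genes than between samples. Per kilobase of exon, Cd74 was the most abundant, with a mean over the 4 samples of 1438 CPM per kb. H2-Ab1 (457 CPM per kb), Ctss (398) and H2-Aa (366) came next and overlapped each other over the samples. H2-Eb1 followed at 154 CPM per kb, and its range overlapped that of Ctss but not those of H2-Ab1 and H2-Aa. H2-DMb1 stood at 42.5, H2-DMa at 20.4 and Ciita at 12.96 CPM per kb, and the ranges of H2-DMa and Ciita did not overlap. H2-Ob (3.91 CPM per kb) and H2-Oa (3.84) were lowest and could not be told apart beyond their spread. Exon lengths came from GENCODE M21, not from the authors' annotation.

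**Figure D2:**
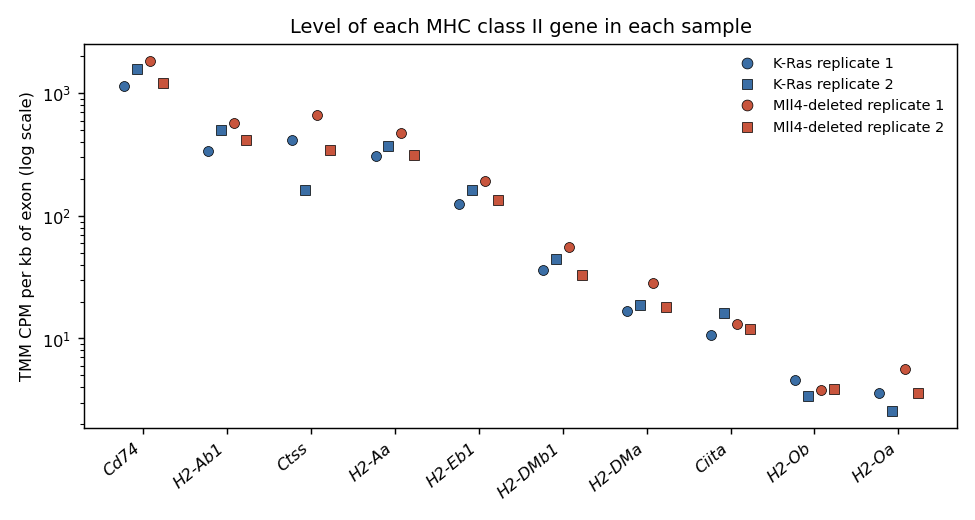
Level of each of the 10 genes in each of the 4 samples, in TMM CPM per kilobase of exon on a log axis, with genes ordered by their mean. Cd74 lies highest and H2-Ob and H2-Oa lowest, and the colours of the groups interleave within most genes.

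Ciita encodes the transactivator on which the class II chain genes depend. It stood at 87.5 and 133 CPM in K-Ras replicates 1 and 2 and at 109 and 97.4 CPM in Mll4-deleted replicates 1 and 2. The K-Ras samples therefore held both the lowest and the highest value, and the Mll4-deleted samples lay between them. The log2 fold change was -0.10 (SE 0.24, edgeR adjusted p = 0.834). It was 0.22 without K-Ras replicate 2. The counts sum over all start sites of Ciita, which differ between cell types, and do not separate them.

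Cd74, the invariant chain gene, had 1614 and 2244 CPM in K-Ras and 2578 and 1707 CPM in Mll4-deleted samples. It took from 48.2% to 55.8% of all reads on the 10 genes. Its log2 fold change was 0.15 (SE 0.31, edgeR adjusted p = 0.803), and it turned to -0.06 without K-Ras replicate 1 and to -0.17 without Mll4-deleted replicate 1.

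The 3 classical chain genes moved together from sample to sample and did so in the same order. H2-Aa, the alpha chain of the I-A molecule, had 347 and 417 CPM in K-Ras and 533 and 357 CPM in Mll4-deleted samples. H2-Ab1, its beta chain, had 407 and 606 CPM in K-Ras and 700.4 and 503 CPM in Mll4-deleted samples. H2-Eb1, the beta chain of the I-E molecule, had 208 and 271 CPM in K-Ras and 323 and 227 CPM in Mll4-deleted samples. In each of these genes, as in Cd74, Mll4-deleted replicate 1 was highest, followed by K-Ras replicate 2 and Mll4-deleted replicate 2, and K-Ras replicate 1 was lowest, so the groups overlapped. Their log2 fold changes were 0.22, 0.25 and 0.20, with SEs of 0.26, 0.29 and 0.25 and edgeR adjusted p values of 0.642, 0.646 and 0.667. Without Mll4-deleted replicate 1 they were -0.092, -0.0040 and -0.072. The proportions between the chains were steadier than their levels. Per 100 reads of Cd74, the 3 chains together had 59.6 and 57.7 reads in K-Ras and 60.4 and 63.6 in Mll4-deleted samples, a range of 1.10 times over the samples. Per 100 reads of H2-Ab1 there were 85.1 and 68.7 reads of H2-Aa in K-Ras and 76.1 and 70.8 in Mll4-deleted samples.

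The partner chain of H2-Eb1 is encoded by H2-Ea, listed here as the pseudogene H2-Ea-ps. It had 0 reads in all 4 samples, which allows up to 0.0830 to 0.114 CPM. The other paralogues were low as well. H2-DMb2, a near copy of H2-DMb1, had 11.5 and 11.3 CPM in K-Ras and 13.5 and 11.4 CPM in Mll4-deleted samples. H2-Eb2 had 4.12 and 3.32 CPM in K-Ras and 3.16 and 2.36 CPM in Mll4-deleted samples, so both Mll4-deleted samples were lower, by -0.43 on the log2 scale (SE 0.33, with an adjusted p of 0.475 by edgeR), which was not a call. Reads that aligned to more than 1 place were tallied apart from the genes, so the counts of such copies are uncertain.

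H2-DM, the peptide exchange factor, is built from H2-DMa and H2-DMb1. H2-DMa had 44.4 and 49.6 CPM in K-Ras and 75.7 and 48.1 CPM in Mll4-deleted samples. H2-DMb1 had 51.0 and 63.1 CPM in K-Ras and 78.4 and 46.3 CPM in Mll4-deleted samples. Mll4-deleted replicate 1 was again the highest for both, and Mll4-deleted replicate 2 lay within or below the K-Ras values. The log2 fold changes were 0.40 (SE 0.25) and 0.13 (SE 0.29), with edgeR adjusted p values of 0.406 and 0.828. Without Mll4-deleted replicate 1 they were 0.04 and -0.30. Per 100 reads of the 3 classical chains the 2 genes together had 9.92 and 8.71 reads in K-Ras and 9.90 and 8.69 reads in Mll4-deleted samples. The samples numbered 1 thus gave nearly the same value, as did the samples numbered 2, and the groups overlapped.

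H2-O, which holds H2-DM in check and is best known from B cells, is built from H2-Oa and H2-Ob. H2-Oa was the only one of the 10 genes whose groups did not overlap, with 3.89 and 2.79 CPM in K-Ras and 6.09 and 3.94 CPM in Mll4-deleted samples. That pattern was shared by the 29.9% of tested genes given above. The nearest values of the groups came from 119 reads in K-Ras replicate 1 and 127 reads in Mll4-deleted replicate 2, and the groups overlapped once samples were scaled by library total or by upper quartile. The difference of 0.58 on the log2 scale (SE 0.36) missed the threshold (edgeR adjusted p = 0.395). It was 0.24 without Mll4-deleted replicate 1 and 0.86 without Mll4-deleted replicate 2. H2-Ob had 16.1 and 12.0 CPM in K-Ras and 13.3 and 13.6 CPM in Mll4-deleted samples, the narrowest range of the 10 genes at 1.34 times. Its log2 fold change was -0.06 (SE 0.22, edgeR adjusted p = 0.894). It was 0.17 without K-Ras replicate 1. There were 24.2 and 23.3 reads of H2-Oa per 100 reads of H2-Ob in K-Ras and 45.7 and 29.0 in Mll4-deleted samples. This ratio was not tested, and the value that stood most apart was that of Mll4-deleted replicate 1. The 95% intervals of the 2 log2 fold changes overlapped, from -0.37 to 1.54 for H2-Oa and from -0.63 to 0.51 for H2-Ob. Per 100 reads of H2-DMa and H2-DMb1, the H2-O genes had 20.9 and 13.1 reads in K-Ras and 12.6 and 18.6 reads in Mll4-deleted samples, so the groups overlapped.

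Ctss, the gene of cathepsin S, varied most. It had 567 and 222 CPM in K-Ras and 909.7 and 465 CPM in Mll4-deleted samples, a range of 4.09 times. K-Ras replicate 2 was lowest although Cd74 and the chain genes were second highest there. In each group replicate 1 exceeded replicate 2, and the groups overlapped. The difference of 0.80 on the log2 scale (SE 0.57) missed the threshold (edgeR adjusted p = 0.455). It was 0.24 without Mll4-deleted replicate 1, 0.26 without K-Ras replicate 2 and 1.63 without K-Ras replicate 1. Per 100 reads of Cd74 there were 35.2 and 9.91 reads of Ctss in K-Ras and 35.3 and 27.2 in Mll4-deleted samples.

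Class II transcripts were set beside markers of the cells that can carry them, since CD45 depletion had left leukocyte transcripts in all 4 samples. In bulk RNA, fewer cells of a type and less RNA per cell cannot be told apart. The gene of CD45, Ptprc, had 274 and 143 CPM in K-Ras and 269 and 171 CPM in Mll4-deleted samples. The 10 pan-leukocyte markers summed to 1659 and 755 CPM in K-Ras and to 1658 and 1097 CPM in Mll4-deleted samples, and 0 of them was called. In each group replicate 1 held the higher leukocyte sum. The classical chains did not follow that order, since K-Ras replicate 2 exceeded K-Ras replicate 1 (1294 against 962 CPM summed over H2-Aa, H2-Ab1 and H2-Eb1).

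The 12 macrophage markers summed to 6777 and 721 CPM in K-Ras and to 4048 and 1026 CPM in Mll4-deleted samples, a range of 9.40 times, against 1.62 times for the 3 classical chains. Chil3, a product of alveolar macrophages, made up most of that sum, and without it, as a choice made after seeing the data, the range was 3.17 times. Ctss shared with this sum that replicate 1 was above replicate 2 in each group. The pan-leukocyte, dendritic cell and B cell sums did so as well. The highest sample differed, K-Ras replicate 1 for the macrophage sum and Mll4-deleted replicate 1 for Ctss. Per 100 reads of the macrophage receptor gene Csf1r, Ctss had 1058 and 781 reads in K-Ras and 1803 and 1986 in Mll4-deleted samples, a ratio for which no test was made. Csf1r was 1 of the 12 markers, and no ratio to the others was made. Ear2, another of them, had 51.8 and 19.4 CPM in K-Ras and 116 and 55.6 CPM in Mll4-deleted samples. Its log2 fold change of 1.27 was above the 0.80 of Ctss. Of the 12 markers 2 were higher and 1 lower in both Mll4-deleted samples, with a median of -0.060 and 0 called. The 10 dendritic cell markers summed to 345 and 195 CPM in K-Ras and to 273 and 150.1 CPM in Mll4-deleted samples. Of these markers 3 were lower and 0 higher in both Mll4-deleted samples, beside 28.5% lower and 29.9% higher among all tested genes. In this list 4 had positive and 6 negative log2 fold changes, and the median was -0.085. The smallest p-values were those of Zbtb46 and Clec9a, with log2 fold changes of -0.89 and -1.20 that were not called (edgeR adjusted p = 0.144 for each). The 10 B cell markers summed to 133 and 78.4 CPM in K-Ras and to 109 and 102 CPM in Mll4-deleted samples, and all 10 were above the floor of 3 reads in every sample.

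The alveolar type 2 markers had another order. Their 10 genes summed to 18744 and 30727 CPM in K-Ras and to 25096 and 26430 CPM in Mll4-deleted samples, so that K-Ras replicate 1 was lowest and K-Ras replicate 2 highest. Ciita had the same lowest and highest samples. Sftpc, the surfactant protein C gene, had 5842 and 10747 CPM in K-Ras and 7740.3 and 5748 CPM in Mll4-deleted samples. Sftpb, the surfactant protein B gene, was higher in both Mll4-deleted samples, with 2871 and 5629 CPM in K-Ras and 7045 and 10342 CPM in Mll4-deleted samples. Of the 10 markers 1 was higher and 3 were lower in both Mll4-deleted samples, with a median log2 fold change of -0.27 and 0 called. Among the 8 general epithelial markers 6 were higher in both Mll4-deleted samples and 1, Cldn4, was lower in both (log2 fold change -0.88), with a median of 1.10 over the list and 0 genes called. By contrast 6 of the 8 endothelial markers were lower in both, with a median of -0.76 and 0 called. Of the 7 neutrophil markers tested 6 were lower in both Mll4-deleted samples and 1, Cxcr2, was higher in both (log2 fold change 1.21), with a median of -1.44 and 0 called. The 9 T cell markers had a median of 0.12, with 2 higher in both Mll4-deleted samples and 0 called. Beside these counts, 29.9% of all tested genes were higher and 28.5% lower in both Mll4-deleted samples.

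The summed level of the 10 class II genes was 3346 and 4020 CPM in K-Ras and 5327 and 3469 CPM in Mll4-deleted samples. The difference of the group means of its log2 values was 0.23, less than the pooled SD of 0.34 between replicates. Per CPM of pan-leukocyte markers the class II sum was 2.02 and 5.33 in K-Ras and 3.21 and 3.16 in Mll4-deleted samples, and the difference became -0.04. Per CPM of alveolar type 2 markers it was 0.178 and 0.131 in K-Ras and 0.212 and 0.131 in Mll4-deleted samples, with a difference of 0.13. Per CPM of dendritic cell markers it was 9.70 and 20.6 in K-Ras and 19.5 and 23.1 in Mll4-deleted samples, and the difference grew to 0.59. Itgax, Zbtb46 and Clec9a made up most of the dendritic cell sum in every sample. Itgax alone had 213 and 50.6 CPM in K-Ras and 189 and 81.5 CPM in Mll4-deleted samples, so the ratio rests on few markers. The difference was 0.35 per CPM of macrophage markers and 0.18 per CPM of B cell markers. The part of any of these cell types in the class II values was not tested.

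**Figure D3:**
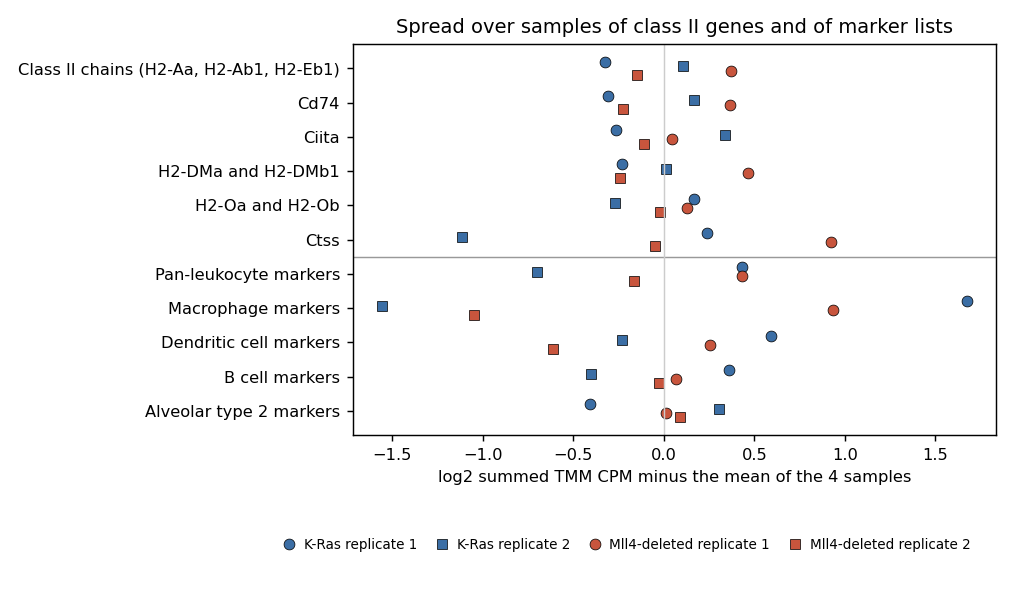
Summed TMM CPM on a log2 scale, minus the mean of the 4 samples (x axis), for groups of class II genes above the grey line and for lists of cell type markers below it, with 1 point a sample. The macrophage markers spread over 9.40 times and Ctss over 4.09 times, while the classical chains stay within 1.62 times.

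The rest of the pathway was followed through lists of genes, and no gene of these lists was called. The class II transcription complex comprises the RFX subunits, CREB1 and the NF-Y subunits that CIITA engages at the promoter. Its 7 genes had a median log2 fold change of 0.10 and ranged from -0.27 to 0.17. Of them 4 were higher and 2 lower in both Mll4-deleted samples, beside 29.9% and 28.5% of all tested genes. Rfx5, which had the smallest p-value of them, stood at 38.3 and 32.2 CPM in K-Ras and at 28.2 and 30.0 CPM in Mll4-deleted samples (edgeR adjusted p = 0.349). The 9 genes of interferon gamma input, the cytokine route that induces Ciita, had a median of -0.19. Ifng, the cytokine gene itself, was low, at 1.90 and 2.63 CPM in K-Ras and at 1.14 and 2.79 CPM in Mll4-deleted samples.

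The 10 endosomal processing genes had a median log2 fold change of 0.20, and 3 were higher in both Mll4-deleted samples, a share close to the 29.9% of all tested genes. Ctsh, the gene of the aminopeptidase cathepsin H, which alveolar type 2 cells also use to mature surfactant protein, had 537 and 688 CPM in K-Ras and 1447 and 2296 CPM in Mll4-deleted samples. Its log2 fold change was 1.61 (SE 0.31, edgeR adjusted p = 0.147). Ctsc, the gene of cathepsin C, had 308 and 336 CPM in K-Ras and 572 and 557 CPM in Mll4-deleted samples. It was higher by 0.81 on the log2 scale (SE 0.16, with an adjusted p of 0.147 by edgeR). The groups did not overlap for either of these cathepsins, and they did for Ctss. Ctsc and Ctsh were the only genes of the list with an unadjusted p under 0.05. Of the 6 trafficking and turnover genes, Lamp2, a lysosomal membrane protein gene, had a log2 fold change of 0.44 (edgeR adjusted p = 0.216) and Ap1m1, a clathrin adaptor subunit gene, one of -0.36 (edgeR adjusted p = 0.222). March1, whose ubiquitin ligase removes class II from the surface, had 39.2 and 16.5 CPM in K-Ras and 35.7 and 20.7 CPM in Mll4-deleted samples, with replicate 1 the higher in each group. The 6 genes of the co-stimulation list, which also held Cd274 and Pdcd1lg2, genes of inhibitory ligands, had a median of -0.54. Cd40 and Icosl were lower in both Mll4-deleted samples, as were 28.5% of all tested genes. Their log2 fold changes were -0.48 and -0.60, with edgeR adjusted p values of 0.256 and 0.286.

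**Figure D4:**
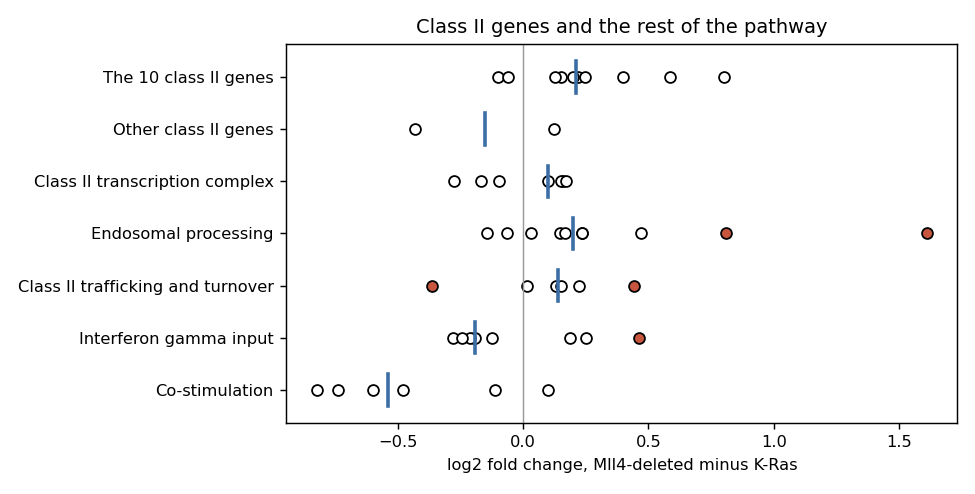
Log2 fold change (Mll4-deleted minus K-Ras, x axis) of each tested gene of the class II pathway by list, with the list's median as a blue bar and filled points for an unadjusted edgeR p under 0.05. No point of the 10 class II genes is filled, while Ctsh at 1.61 and Ctsc at 0.81 are the filled points of endosomal processing.

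The genes whose profile over the 4 samples lay nearest to the mean of the 10 class II genes were also listed. That mean profile was 0.39 above the average on the log2 scale in Mll4-deleted replicate 1 and between 0.10 and 0.15 below it in the other samples. Among 11897 other genes with a mean of at least 5 CPM, the 5 nearest by Euclidean distance were Cpe, Tnfsf9, C030006K11Rik, Polr2f and Fut8, at distances of 0.05 to 0.10. Of the 10 nearest, 0 belonged to the pathway or marker lists. Of the 10 class II genes themselves, H2-DMa and H2-Aa lay nearest to their own mean, at 0.16 and 0.17, and Ctss lay farthest, at 1.21, followed by H2-Ob at 0.60 and Ciita at 0.57. With 4 samples many genes share a profile by its simple shape, so likeness here is a description only.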

How the data were processed

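RNA was sequenced from 4 CD45-depleted mouse lung tumour samples, 2 K-Ras and 2 Mll4-deleted, grouped and numbered by their titles. Each deposited file lists whole-number counts of reads for every gene symbol, not normalised. The submitters' processing notes name CASAVA 1.4, STAR, HTSeq and the build mm9, with no role or order. The annotation, strand setting and filters are not given in the sources used here. The 5 closing tally lines of each file, 60.1% to 65.6% of its total, name no gene and were left out. No batch is labelled. The comparison was fitted with edgeR 4.0.16 in R 4.3.3: filterByExpr, TMM scaling, robust quasi-likelihood test on group alone, Benjamini-Hochberg adjustment over 16001 genes, threshold 0.05. The SE is the absolute log2 fold change divided by the square root of F, and intervals are 95%. The fit was also run on simulated counts with the same dispersion for every gene, which does not show how it behaves on these samples. Reads carry no stated molecular identifiers, so floors cover counting error only. The named genes were the members, Kmt2d and Ptprc, then examples with the smallest p-value in each list; March1, Ifng, the paralogues and the marker genes named singly were chosen after their values were seen. The members and lists were chosen with earlier results of these data known. Exon length is the union of GENCODE M21 basic exons. Promoters are RefSeq windows on GRCm38.p6, found by symbol. Alternatives included DESeq2 1.42.0, limma-voom (limma 3.58.1), other scalings and filters, the replicate number as a block, and leaving out each sample.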

Additional observations from a re-analysis of the deposited data

How the results depend on the processing

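The alternatives numbered 13, and no class II gene was called under any that kept all 4 samples. Most of these called few genes of any kind, so a 0 of 10 there carries little. The counts were 5 to 7 of 16001 genes under the other scalings and the non-robust fit. They were 6 of 13857 genes with at least 50 reads in 2 samples and 44 of 19951 with no filter beyond 1 read. Of the 130 single-gene values under alternatives, 120 kept their direction and 10 turned direction, all of them when 1 sample was left out. The lowest adjusted p of a class II gene under any alternative was 0.105, for Ctss with the replicate block (edgeR), and those of Ctss ran up to 0.893. The labels number the samples 1 and 2 in both groups but do not say what a number shares. Deviations from the group means of same-numbered samples correlated at 0.202 over 16001 genes, and with the replicate block 217 genes were called in all, against 6 without it, and 0 of the 10 class II genes. DESeq2 called 1601 genes in all and limma-voom 0. The number of class II genes whose groups did not overlap fell from 1 to 0 with upper quartile scaling, total counts, or a filter of at least 50 reads in 2 samples. Over the fits without 1 sample it spanned 2 to 8, where a lone sample overlaps less easily by construction. The other tests, the non-robust fit and the block leave the CPM as they are and give no new count of overlaps. The median log2 fold change of the 10 genes ran from -0.057 without Mll4-deleted replicate 1 to 0.46 without Mll4-deleted replicate 2. The difference in their summed level moved from 0.23 to 0.59 per summed dendritic cell markers, and spanned -0.075 to 0.53 over the fits without 1 sample. In those fits the lone sample is assumed to vary like the other group. The single genes that turned direction ranged there from -0.36 to 0.22 (Ciita), -0.17 to 0.41 (Cd74), -0.092 to 0.475 (H2-Aa), -0.0064 to 0.55 (H2-Ab1), -0.072 to 0.43 (H2-Eb1), -0.30 to 0.45 (H2-DMb1) and -0.27 to 0.17 (H2-Ob). Without 1 sample H2-DMa ranged from 0.040 to 0.68, H2-Oa from 0.24 to 0.86 and Ctss from 0.24 to 1.63. The lowest count of any of the 10 genes was 101 reads, for H2-Oa.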
